A study of Pimephales promelas with 80 samples.

Results

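At nearly equal doses, the tire rubber antioxidant 6PPD and its quinone 6PPD-Q were compared in larvae of a freshwater fish common in toxicity tests, the fathead minnow (Pimephales promelas). The comparison takes the 5 larvae labelled 6PPD-Q at 0.878 mg/L and the 5 larvae labelled 6PPD at 0.848 mg/L. These are 10 of the 80 larvae of the study, set by their labels, and the comparison was chosen with earlier results of these data known. Each larva spent a day unfed in a plate well, in water with DMSO as solvent, and its whole body gave 1 RNA library. The labels name no strain or genotype. The study also holds 10 unexposed controls and further doses of both chemicals with 5 fish each. The 5 fish of a group are separate animals, drawn at random from a pool of the offspring of multiple crosses. The labels give the age of the larvae and the exposure volume in more than 1 way, and neither is used.

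6PPD is a substituted phenylenediamine that protects rubber by reacting with ozone at the tire surface, and 6PPD-quinone is an oxidation product of it, in which the central ring is a quinone. The quinone is washed from roads into streams and is known for killing coho salmon, while several other fishes, the fathead minnow among them, tolerate it. Series-wide, the question stated by the submitters is whether either chemical changes the transcriptome of this species. By mass the quinone dose was 3.57% above the parent dose. By amount of substance, with molar masses computed from the structures, it was 6.84% lower, at 2.94 µM against 3.16 µM. The doses are the labelled ones, and concentrations in the water were not used here.

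The 10 libraries held 18.7 to 24.2 M counts in genes with 6PPD-Q and 19.4 to 20.9 M with 6PPD, within the 16.2 to 36.6 M of all 80. The sample names of all 10 fish have C as the middle field. It is read here as the plate, since the design text speaks of plates A and C. Among the controls, replicates 1 and 2 have A there and the others C, so control means and ranges below draw on both plates. None of 7 library measures, among them depth, genes detected and reads outside genes, differed beyond the spread between fish (exact permutation tests, two-sided, p = 0.183 to 0.944, adjusted p = 0.944 for each). The smallest p that 5 fish against 5 allow is 0.00794. Gene IDs are those of the count table, which gives no names, and 0 of the 21599 tested IDs occur in the RefSeq gene table at hand. Genes are therefore described by ID for the most changed 2 in each direction and otherwise by rank, level and count, and no function can be given for them. In RNA from whole larvae, fewer cells of a type and less RNA per cell cannot be told apart.

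Larvae given the quinone and larvae given the parent differed at few genes, and most of these were lower with the quinone. Of 21599 genes tested, 82 differed (0.380%), 71 lower with 6PPD-Q (0.329%) and 11 higher (0.0509%), by edgeR's quasi-likelihood F test with Benjamini-Hochberg adjustment at 0.05. A gene past that threshold is called below, and all adjusted p-values of genes come from this test. The 71 genes differed by 0.32 to 3.99 on the log2 scale, with a median log2 difference (6PPD-Q minus 6PPD) of -1.0. Of them 35 were beyond 1 and 9 beyond 2 in size. The 11 genes were higher by 0.58 to 3.48, with a median of 0.93, and 4 were beyond 1. Over all tested genes the median log2 difference was 0.01, and 1338 genes had an unadjusted p under 0.05, 741 of them lower with the quinone. The count of called genes was 57 without 6PPD replicate 5 and 97 without 6PPD replicate 4, and the 11 higher genes were 6 without 6PPD replicate 5 and 7 without 6PPD replicate 1. A fit of the 10 fish alone gave 5 higher genes, and DESeq2 called 132 genes, 19 of them higher and 113 lower.

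**Figure D1:**
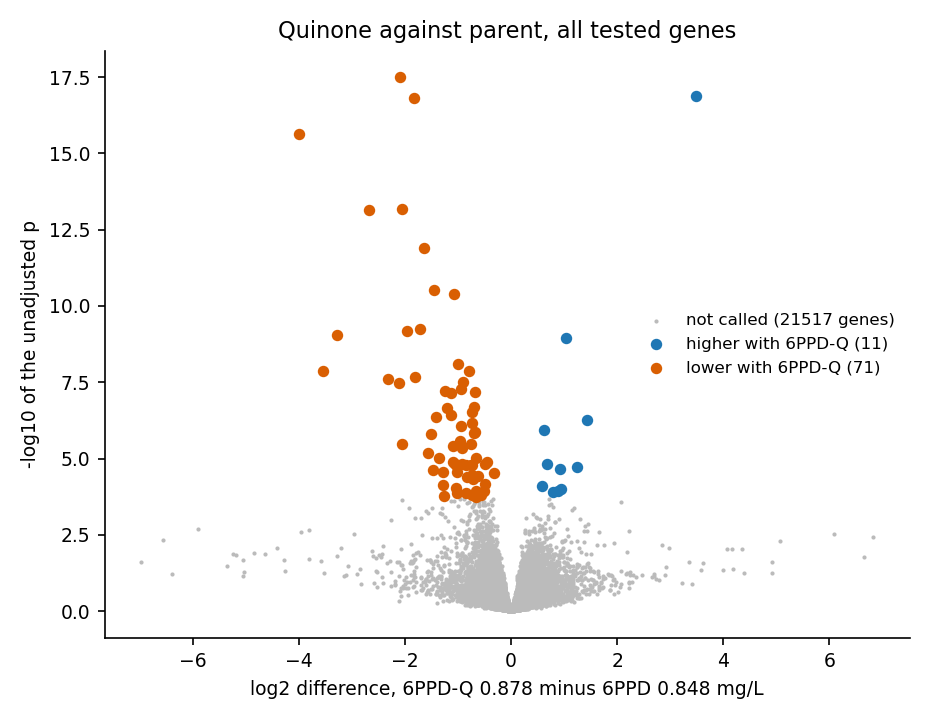
Each point is 1 of 21599 genes: x, the log2 difference in level, 6PPD-Q at 0.878 minus 6PPD at 0.848 mg/L (5 fish each); y, -log10 of the unadjusted p of edgeR's test. The 71 genes called lower with the quinone lie at the left and outnumber the 11 called higher, and the gene farthest to the right among the called is FMg025031 at 3.48.

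FMg025031 stood apart as the gene with the largest difference in favor of the quinone. Its level in counts scaled per M counts in genes (CPM) was 457, 622, 604, 843 and 86.6 in 6PPD-Q replicates 1 to 5, and 50.5, 35.3, 45.5, 48.3 and 54.1 in 6PPD replicates 1 to 5. Quinone replicates 1 to 4 were far above every parent fish and replicate 5 was close to the parent fish, but the groups did not overlap. The means were 523 ± 280 CPM with 6PPD-Q and 46.7 ± 7.11 with 6PPD (SD, n = 5 each), 11.2-fold apart. The log2 difference was 3.48 ± 0.31 (SE, 95% interval 2.87 to 4.09, adjusted p = 1.09e-13), and 3.76 without 6PPD-Q replicate 5. In a fit of the 10 fish alone it was 3.48 ± 0.45 (SE, adjusted p = 0.0051), and limma gave 3.17. The 10 controls had 57.2 ± 10.7 CPM, between 42.2 and 74.9, so every quinone fish was above the highest control. Against controls the quinone group differed by 3.19 on the log2 scale and the parent group by -0.29 (95% interval -0.78 to 0.20, adjusted p = 0.889). Those 2 values share the control fish.

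FMg007996, the gene with the next largest difference upward, had the opposite arrangement around the controls. Its level was 66.6, 79.0, 109.9, 81.0 and 48.9 CPM in 6PPD-Q replicates 1 to 5 and 19.6, 23.0, 25.8, 46.3 and 27.4 in 6PPD replicates 1 to 5. No parent fish reached a quinone fish, although 6PPD replicate 4 came near 6PPD-Q replicate 5. The means were 77.1 ± 22.4 and 28.4 ± 10.4 CPM (SD, n = 5 each), a 2.71-fold difference (log2 1.44 ± 0.26, 95% interval 0.92 to 1.96, adjusted p = 0.000394). Controls had 78.4 ± 12.7 CPM, between 59.6 and 98.6. All 5 parent fish were below the lowest control, and the parent group was lower than controls by 1.46 (log2 -1.46, adjusted p = 1.71e-05). The quinone group differed from controls by -0.02 (95% interval -0.46 to 0.42).

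The gene that was lowest with the quinone relative to the parent was FMg014221. It stood at 8.43, 9.29, 9.12, 8.02 and 24.3 CPM in 6PPD-Q replicates 1 to 5 and at 218.5, 145, 111, 124.5 and 346.5 in 6PPD replicates 1 to 5. The lowest parent fish was well above the highest quinone fish. Group means were 11.8 ± 7.01 and 189 ± 97.2 CPM (SD, n = 5 each), 15.9-fold apart (log2 -3.99 ± 0.37, 95% interval -4.74 to -3.25, adjusted p = 1.24e-12). Controls had 7.13 ± 1.83 CPM, between 4.14 and 10.2, so 4 of the 5 quinone fish lay within the control range and replicate 5 above it. The quinone group was 0.73 above controls on the log2 scale with an interval of 0.15 to 1.32, and this did not pass adjustment (adjusted p = 1.00).

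FMg014186 was arranged likewise but with a wider spread. Its level was 1.42, 6.27, 3.64, 9.30 and 13.7 CPM in 6PPD-Q replicates 1 to 5 and 100.3, 93.5, 45.9, 13.95 and 145 in 6PPD replicates 1 to 5. The highest quinone fish and the lowest parent fish nearly met. The means were 6.86 ± 4.81 and 79.8 ± 51.0 CPM (SD, n = 5 each), 11.6-fold apart (log2 -3.53 ± 0.55, 95% interval -4.63 to -2.44, adjusted p = 1.87e-05). Controls had 3.49 ± 1.93 CPM, up to 7.54, so 2 of the 5 quinone fish and all 5 parent fish were above the highest control.

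A single fish, 6PPD-Q replicate 5, was the quinone fish nearest to the parent fish in all 4 of these genes, lowest in FMg025031 and FMg007996 and highest in FMg014221 and FMg014186. Without it the log2 differences were 3.76, 1.57, -4.44 and -3.95 in that order, and 73 genes were called in all, 65 of them among the 82.

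**Figure D2:**
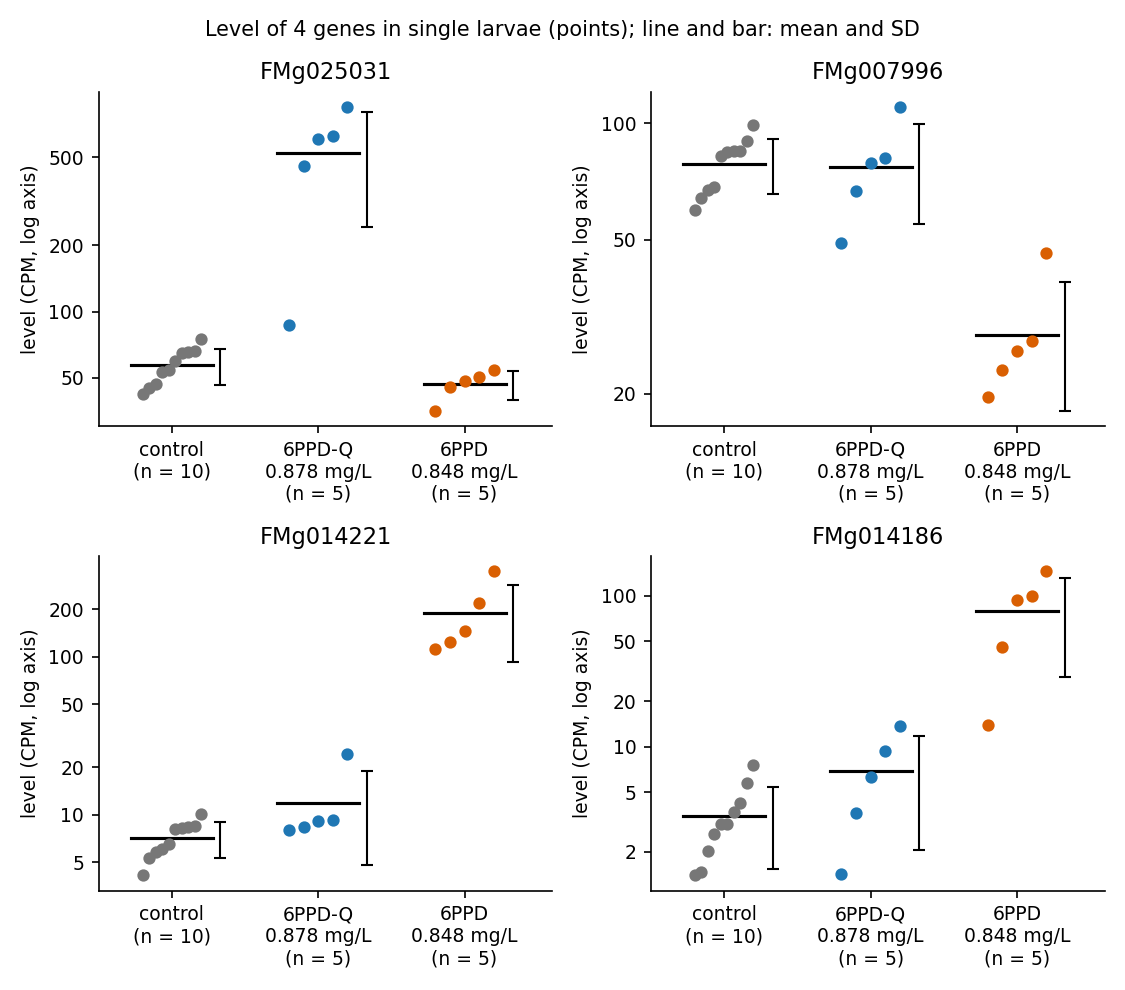
Levels of FMg025031, FMg007996, FMg014221 and FMg014186 in single larvae, in CPM on log axes, for controls (n = 10), 6PPD-Q at 0.878 mg/L and 6PPD at 0.848 mg/L (n = 5 each); lines are means and bars SD. As a group, the quinone fish lie away from controls for FMg025031, and the parent fish for the other genes. Of the quinone fish, 1 was above the highest control for FMg014221 and 2 for FMg014186. For FMg007996, 1 was above the highest control and 1 below the lowest.

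Among the remaining genes lower with the quinone, the smallest p belonged to the gene of rank 7 by size of difference. It stood at 61.7 to 80.9 CPM in the quinone fish and at 193 to 394 in the parent fish, with means of 69.5 ± 8.77 and 296 ± 73.2 CPM (SD, n = 5 each). The controls, at 75.8 ± 10.7 CPM, overlapped the quinone fish and lay below every parent fish. The log2 difference was -2.09 ± 0.18 (adjusted p = 7.03e-14). The gene of rank 3 was scarce with the quinone, at 0.99 to 1.77 CPM, and stood at 4.70 to 25.7 CPM in the parent fish. It was scarcer still in controls, and the quinone fish stood 0.74 to 1.51 above its control mean on the log2 scale. The gene of rank 4 averaged 41.6 ± 19.5 CPM with the quinone and 267 ± 128 with the parent, and that of rank 8 averaged 6.99 ± 1.95 and 29.1 ± 2.56 CPM. At the other end, the smallest difference called was at a steady gene, with 39.3 to 45.8 CPM in the quinone fish and 49.7 to 56.0 in the parent fish (log2 -0.32 ± 0.07, adjusted p = 0.0102). Over the 10 fish, the mean level of the 71 genes ranged from 2.54 to 577 CPM with a median of 48.2.

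Among the genes higher with the quinone, the gene of rank 4 had 26.7 to 38.4 CPM in the quinone fish, 11.6 to 19.7 in the parent fish and 33.3 ± 3.91 in controls. Its log2 difference was 1.03 ± 0.15 (adjusted p = 1.91e-06). The mean level of the 11 genes ranged from 1.40 to 285 CPM with a median of 26.4.

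The 5 fish of one chemical did not overlap the 5 of the other in 64 of the 71 lower genes and 9 of the 11 higher ones. Over all tested genes the same was so of 1.63%, made up of 1.14% with the quinone lower and 0.486% with the quinone higher. These counts describe genes that were chosen for this difference. At the 71 genes the median SD of log2 CPM was 0.28 in the quinone fish, 0.25 in the parent fish and 0.24 in controls, against 0.31, 0.26 and 0.26 over all tested genes.

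Set beside the controls, the parent fish were the displaced group for nearly all called genes. The comparisons of the chemicals with controls share the control fish with each other and the exposed fish with the comparison above, so their values are given side by side as a description. For the 71 genes lower with the quinone, the median log2 difference from controls was 1.07 with 6PPD (0.27 to 4.73) and 0.07 with 6PPD-Q (-0.36 to 1.01). The parent mean was above the highest control for 70 of the 71, and every parent fish was above the highest control for 59. The quinone mean was within the control range for 57 and above it for 14. These counts against the control range were not taken over all genes, and they only describe genes chosen for differing between the chemicals. By the test against controls, 65 of the 71 were called higher with 6PPD, where 0.750% of all genes were, and none with 6PPD-Q, where 0.00463% were.

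For the 11 genes higher with the quinone, the median log2 difference from controls was -0.70 with 6PPD (-1.46 to -0.29) and 0.13 with 6PPD-Q (-0.18 to 3.19). The parent mean was below the lowest control for 9 of them, and the quinone mean was within the control range for 9. These counts, too, were not taken over all genes. With 6PPD 8 of the 11 were called lower than controls, where 0.130% of all genes were, and with 6PPD-Q FMg025031 alone was called. Over all genes, 190 were called with 6PPD at 0.848 mg/L against controls (0.880%) and 1 with 6PPD-Q at 0.878 mg/L (0.00463%), which is FMg025031.

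**Figure D3:**
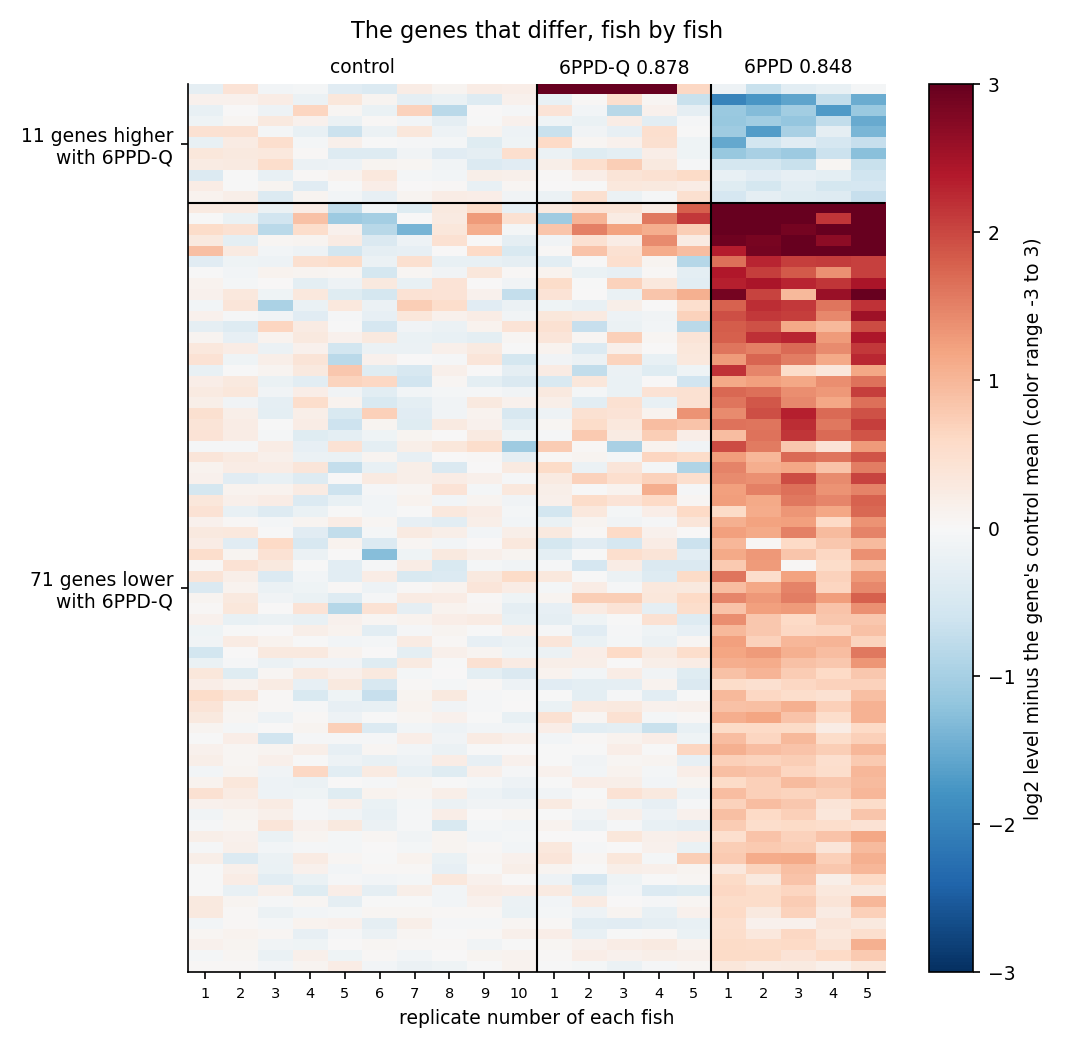
Each row is 1 of the 82 called genes (11 higher with 6PPD-Q on top, 71 lower below, by size of difference) and each column 1 fish, with color giving the log2 level minus the gene's control mean. The 5 columns of 6PPD are above the control mean in all 71 lower rows. Their color is plain at the top of that block and faint at its bottom, where differences are small. In the 11 higher rows nearly all 6PPD cells are below the control mean. The columns of 6PPD-Q stand out most in the top row, FMg025031. They do so more weakly in some of the lower genes, 14 of which have a quinone mean above the highest control.

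The levels were also read fish by fish. The median of the 71 genes stood 1.08, 1.12, 1.00, 0.81 and 1.30 above the control mean on the log2 scale in 6PPD replicates 1 to 5, and all 71 genes were above their control mean in each of these fish. In 6PPD-Q replicates 1 to 5 it stood at 0.04, -0.004, 0.13, 0.07 and 0.08. The genes were chosen for a difference between these same 10 fish, so the separation of the medians follows from the choice and is a description. The CPM of the 71 genes summed to 0.887% ± 0.109 of 1 M with 6PPD and 0.412% ± 0.0229 with 6PPD-Q (SD, n = 5 each). In controls they summed to 0.382% ± 0.0146 (SD, n = 10). The median of the 11 genes was -1.07, -0.67, -0.67, -0.51 and -0.70 in the parent fish and 0.01, 0.03, 0.21, 0.28 and -0.03 in the quinone fish.

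The pair of doses above, 6PPD-Q at 2.77 and 6PPD at 2.68 mg/L, gave a reading of the same genes in 10 other fish, which share the filter and the spread estimate of the fit with all other groups. All 82 genes had the same sign of difference there, where 49.6% of all tested genes were negative and 50.4% positive, and 76 were called that way. Of the 71 lower genes 67 were called lower, against 11% of all tested genes, and of the 11 higher genes 9 were called higher, against 8.70%. In all, 4265 genes were called at that pair (19.7%). The median log2 difference was -1.41 for the 71 genes and 1.14 for the 11. For 62 of the 82 the difference was larger in size than at 0.878 against 0.848 mg/L.

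The 6 genes not called at the upper pair had smaller differences there. One was the gene of rank 6 among the lower ones. It had 7.22 to 18.7 CPM in the quinone fish and 41.3 to 63.8 in the parent fish at the doses near 0.85 mg/L. Its controls, at 13.5 ± 3.60 CPM, were like the quinone fish. Its log2 difference was -2.10 ± 0.34 here and -0.86 at the upper pair (adjusted p = 0.0529), and the change between the pairs did not pass the test (adjusted p = 0.154). Nearer to 0 at the upper pair was the scarce gene of rank 3 among the higher ones, at 1.97 CPM with the quinone and 0.83 with the parent. Its log2 difference was 1.25 here and 0.14 there (adjusted p = 0.759), and that change did not pass either (adjusted p = 0.109).

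**Figure D4:**
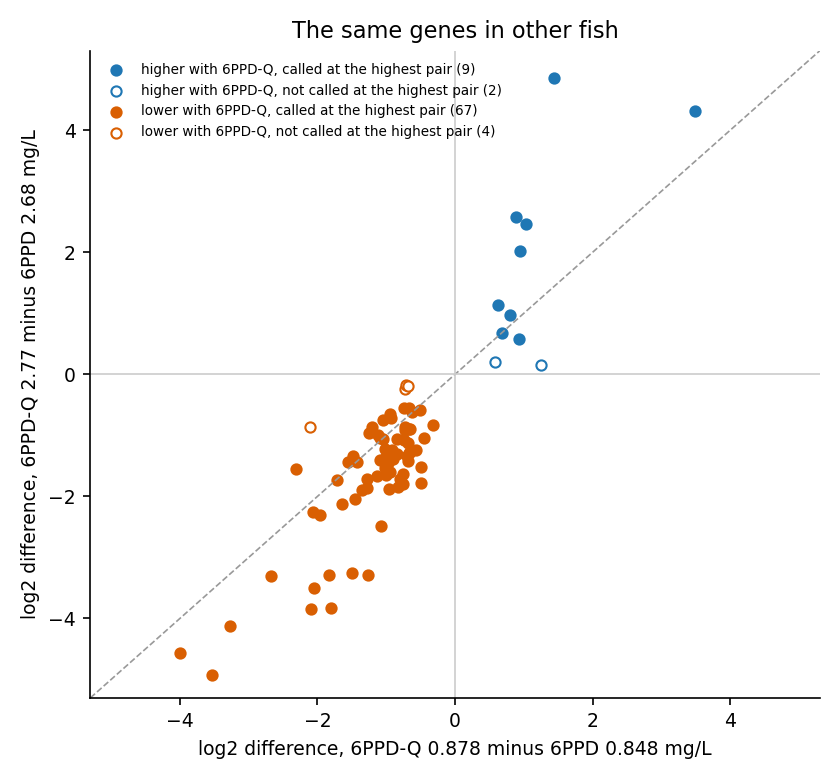
Each point is 1 of the 82 called genes: x, the log2 difference at 6PPD-Q 0.878 minus 6PPD 0.848 mg/L; y, that at 6PPD-Q 2.77 minus 6PPD 2.68 mg/L, in other fish; the dashed line marks equal values. All 82 points lie in the quadrants of equal sign, and the 6 open points, among them the lower gene at -0.86 on the vertical axis, were not called at the upper pair.

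The change of the difference between dose pairs was tested in its own contrast. From the middle to the upper pair, the difference between the chemicals changed for 521 genes (2.41%), 358 of them toward lower with the quinone (1.66%) and 163 toward higher (0.755%). Of the 82 genes 21 were among them, 18 lower and 3 higher, and all 21 moved away from 0. The 82 were chosen at the middle pair, which is part of this contrast, so the count of 21 is not independent of that choice. FMg007996 changed by 3.42 ± 0.39 on the log2 scale (adjusted p = 1.11e-08), and its level there was 2.73 ± 1.90 CPM with 6PPD at 2.68 mg/L and 79.1 ± 21.1 with 6PPD-Q at 2.77 mg/L (SD, n = 5 each). For FMg025031 the change was 0.84 and did not pass (adjusted p = 0.308), nor did that of FMg014221, at -0.56 (adjusted p = 0.65). The count of 521 was 230 without 6PPD replicate 1 at 2.68 mg/L and 730 without replicate 4 at that dose. Of these 4 groups, only that replicate 1 has A as the middle field of its sample name, read as plate A.

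At the pair below, 6PPD-Q at 0.277 and 6PPD at 0.268 mg/L, the called genes were mostly together. Of the 82, 43 had the same sign there, where 50.0% of all genes were positive, and the median log2 difference was -0.01 for the 71 genes and 0.02 for the 11. FMg025031 was called, the only gene of all those tested at that pair (0.00463%), with a log2 difference of 2.76 (95% interval 2.17 to 3.35). From the lower to the middle pair, the difference between the chemicals changed for 17 genes (0.0787%), 16 toward lower with the quinone (0.0741%) and 1 toward higher (0.00463%), and all 17 were among the 82. The middle pair is in both contrasts, so that count is not independent of the choice of genes. FMg014221 changed by -4.62 ± 0.50 (adjusted p = 2.15e-09), from a log2 difference of 0.62 at the lower pair (95% interval -0.07 to 1.32). FMg014186 changed by -3.11, which did not pass (adjusted p = 0.0896).

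Across the whole dose series, FMg025031 and the other genes followed different courses. With the quinone FMg025031 averaged 64.8 ± 24.6 CPM at 0.0878 mg/L, 413 ± 118 at 0.277, 523 ± 280 at 0.878, 483 ± 82.7 at 2.77 and 1089 ± 266 at 8.78 mg/L (SD, n = 5 each). At the doses from 0.277 mg/L upward all 5 fish were above the highest control. With the parent it averaged 46.7 ± 7.11 CPM at 0.848 mg/L and 24.2 ± 12.7 at 2.68 mg/L, where 4 of 5 fish were below the lowest control.

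FMg014221 averaged 7.77 ± 2.23 CPM with 6PPD at 0.268 mg/L, 189 ± 97.2 at 0.848 and 365 ± 77.9 at 2.68 mg/L. With the quinone it averaged 11.8 ± 7.01 CPM at 0.878, 15.4 ± 11.4 at 2.77 and 44.0 ± 18.0 at 8.78 mg/L (SD, n = 5 each), where all 5 fish were above the highest control (log2 difference from controls 2.62, adjusted p = 1.02e-09). FMg014186 averaged 5.21 ± 1.59, 79.8 ± 51.0 and 278 ± 77.5 CPM at the same rising parent doses. With the quinone it averaged 10.7 ± 8.33 CPM at 8.78 mg/L, with 2 of 5 fish above the highest control.

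Over the dose series the 71 genes had a median log2 difference from controls of 0.14 at 0.268 mg/L of 6PPD, with none called higher (0%), and of 1.53 at 2.68 mg/L, with all 71 called higher (12.4% of all genes, and 22.1% in either direction). With the quinone the median was 0.14 at 0.277, 0.19 at 2.77 and 0.32 at 8.78 mg/L. None of the 71 was called at 2.77 mg/L (0.0139% of all genes were called higher), and 16 were called higher at 8.78 mg/L (0.259%) and none lower (0.0417%), where 0.301% of all genes were called in either direction. All these values share the control fish. The 11 genes had a median of -1.04 at 2.68 mg/L of 6PPD, with 9 called lower (9.72%).

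**Figure D5:**
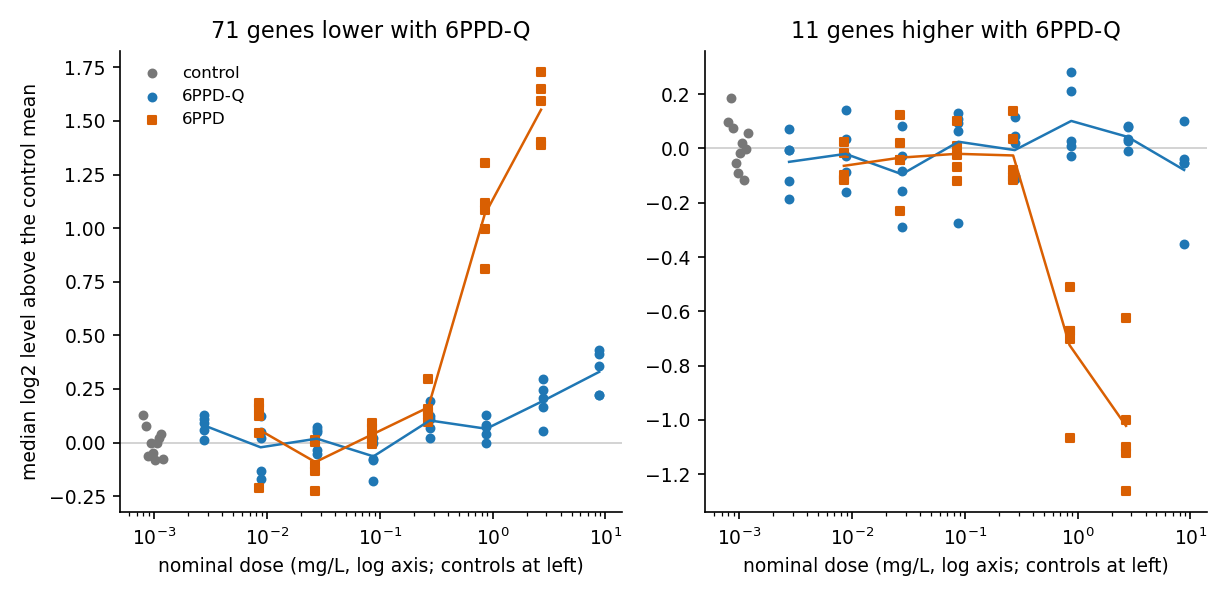
Median log2 level of the 71 genes lower (left) and the 11 genes higher (right) with 6PPD-Q, relative to each gene's control mean, in single fish against the nominal dose in mg/L on a log axis; lines join group means and controls are at the left. In the left panel the parent fish lie between 0.098 and 0.30 at 0.268 mg/L and between 0.81 and 1.30 at 0.848 mg/L. The quinone fish lie between 0.02 and 0.19 at 0.277 mg/L and between -0.004 and 0.13 at 0.878 mg/L. At 8.78 mg/L the quinone fish lie between 0.22 and 0.43, and controls lie between -0.08 and 0.13.

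Genes chosen at the upper pair were also read in the 10 fish near 0.85 mg/L, which are not in that contrast but share its fit, filter and spread estimate. The 2386 genes called lower with the quinone at the upper pair had a median log2 difference of -0.16 here, and 82.0% of them were negative, against 47.5% of all genes. The 1879 called higher had a median of 0.15, and 82.3% were positive, against 52.5% of all genes. Of these, 67 and 9 were called the same way near 0.85 mg/L, where 0.329% of all tested genes were called lower and 0.0509% higher. They are the same 67 and 9 genes as those counted at the upper pair above. The 628 lower genes beyond 1 on the log2 scale at the upper pair had a median of -0.35 here, and the 39 beyond 3 a median of -1.19. The 507 higher genes beyond 1 had a median of 0.34, and the 32 beyond 3 a median of 0.19, with 56.3% positive.

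The genes not called are bounded by their intervals, which are counted here over all tested genes, the called ones included. For 16757 genes, 77.6% of those tested, the 95% interval of the difference between the chemicals lay within a 2-fold change either way, and for 10879 (50.4%) within 1.5-fold. The median half-width of the interval was 0.42 on the log2 scale, 0.32 for the 11616 genes at 10 CPM or more and 0.63 for the rest. A gene that was not called is thus not shown to be equal under both chemicals, only limited by its own interval.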

How the data were processed

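The authors deposited whole-number counts of reads per gene for 26150 genes in 80 libraries. Per the labels' protocols, libraries were made with a SENSE mRNA kit from Lexogen from the RNA of single larvae. Named in the submitters' processing notes are the counter HTSeq 0.13.5, the aligner STAR 2.7.10a, and edgeR, with Trim Galore 0.6.6 for trimming. The build, annotation and strand setting are not given in the sources, so overlapping, antisense and near-identical genes are uncertain. Reads outside any gene (7.73% to 13.5% of reads) and ambiguous reads (4.48% to 6.02%) stayed out of library sizes and tests. Separate log2 tables for each chemical were not used.

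All 80 fish entered 1 fit of 15 groups in edgeR 4.0.16 under R 4.3.3 with TMM scaling, and filterByExpr kept 21599 genes. The chemicals were compared at 3 pairs of near doses, with p-values adjusted over genes within each pair and not over pairs. CPM are TMM-scaled. Intervals are 95%. Members, lists and comparisons were chosen with earlier results of these data known. Named are the 2 genes with the largest difference in each direction among called genes with at least 5 CPM and no overlap between groups; genes given by rank, and the genes singled out beyond these, were picked after their values were seen. DESeq2 1.42.0, limma 3.58.1, other filters, scaling, subsets and fish left out were tried. Library measures were tested with scipy 1.17.1, and molar masses come from rdkit 2024.09.2. Fish of a group differed by more than sampling noise (chi-square per degree of freedom 22.1 to 68.2 in 20 pairs). The biological coefficient of variation was 28.1%. The script was tested on simulated data.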

Additional observations from a re-analysis of the deposited data

Results flagged for a closer look

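In FMg014221, 6PPD-Q replicate 5 had 24.3 CPM while the other 4 quinone fish had 8.02 to 9.29, far enough to stand apart from its group. Of 32 groups of values looked at, this was the 1 case past the 95% limit for a single value, which chance alone passes in about 1 group in 20. The same fish had 86.6 CPM of FMg025031, where the other 4 had 457 to 843, and that gap did not pass the limit.

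The difference between the chemicals changed from the pair near 0.85 mg/L to the upper pair for 521 genes, by a test of the change itself. It changed from the pair below for 17 genes. Of the named genes, FMg007996 changed by 3.42 on the log2 scale to the upper pair, and FMg014221 by -4.62 from the pair below.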

How the results depend on the processing

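The 82 calls became 60 in a fit of the 10 fish alone (47 shared; 5 higher and 55 lower), 130 with these fish and the controls (17 higher, 113 lower, 77 shared) and 132 by DESeq2 (19 higher, 113 lower, all 82 shared). They were 95 by limma, 83 with other size factors, 81 without the filter, 91 with a stricter filter and 82 with robust dispersion. DESeq2 gave 38 genes in place of 17 for the change from the pair below and 4 in place of 1 for 6PPD-Q against controls. No clear pairing of the fish by replicate number was seen. Own-number correlations ran from -0.07 to 0.22 and those of unlike numbers from -0.20 to 0.16. Among the fish, 2 of 5 quinone and 1 of 5 parent fish correlated best with their own number. With the replicate block, 79 genes differed (75 shared), 106 were called with 6PPD against controls and 2 with 6PPD-Q. Controls are numbered 1 to 10 and every other group 1 to 5. In the block fit, control replicates 6 to 10 thus each had a number of their own. The control level of that fit rests on control replicates 1 to 5 alone. Leaving out each fish of the pair gave 57 to 97 calls in all, 6 to 14 higher and 51 to 83 lower, 54 to 90 called the same way at the upper pair, 368 to 561 and 13 to 24 for the changes to the upper and from the lower pair, 131 to 191 for 6PPD and 1 to 2 for 6PPD-Q against controls. Without 6PPD replicate 1 the higher genes were 7, and without replicate 5 they were 6. In all 10 of these fits 49 of the 82 remained, and 33 were lost in at least 1. Fits chosen after seeing the data, leaving out fish of the other pairs, gave 75 to 95 same-way calls, and 230 to 730 and 12 to 20 changes. The 3 plate A libraries are control replicates 1 and 2 and 6PPD replicate 1 at 2.68 mg/L. A fit without them, also chosen after seeing the data, gave 228 changes to the upper pair. It gave 94 calls for the pair near 0.85 mg/L and 193 for 6PPD against controls. The cause was not tested for any of these. The 4 named genes kept their call and direction in all 80 alternative values, with adjusted p up to 0.0419. That largest value is of FMg014186 in the fit of the 10 fish alone.

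Depth limits the scarce genes, and 5 fish a group limit small differences. The labels give no names or functions for the genes, and doses are nominal and differ by 3.57% in mass.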
